A study of Mus musculus with 19 samples.

Results

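Transcripts of the mitochondrial genome are described here by 4 rows of the deposited expression table, those whose gene name is Atpase6, Cox2, Cytb or mt-Nd4. They were taken by name from 29861 rows, and all 4 passed the filter on low values that left 12500 rows for testing. Transcript abundance was measured by RNA sequencing in 19 organoid lines, which are epithelial cultures that grow as spheres in a basement membrane gel. There were 7 normal lines, from pancreatic ducts of wild-type mice, and 6 PanIN lines. PanIN is pancreatic intraepithelial neoplasia, a precursor of ductal carcinoma, and these lines came from ducts of affected mice that carried Pdx1-Cre and a Cre-activated allele. The 6 tumor lines came from pancreatic adenocarcinomas of mice that also carried Trp53LSL-R172H, a mutant p53 allele that Cre switches on. The Pdx1 promoter drives Cre in pancreatic epithelium. Every mouse had the C57B6/J background. The labels give 11 lines as female and 8 as male. Every line was kept with R-spondin, noggin, FGF-10, EGF, gastrin, nicotinamide, B27 and A83-01, which blocks TGF-beta receptors. RNA was depleted of ribosomal RNA and made into stranded libraries, so transcripts were not selected by a poly(A) tail.

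Mammalian mitochondria keep a small circular genome that encodes core subunits of the respiratory chain, while the nucleus encodes the other subunits and every protein that transcribes, cuts and translates mitochondrial RNA. Both strands are transcribed as long precursors, and most messages are released when the transfer RNAs between them are cut out. Complexes I, III and IV pump protons across the inner membrane and complex V, the ATP synthase, uses the gradient. Complex II is the one respiratory complex built from nuclear genes alone. By name, mt-Nd4 is a proton-pumping membrane subunit of complex I, Cytb is cytochrome b, the catalytic haem protein of complex III, Cox2 is the subunit of complex IV that takes electrons from cytochrome c, and Atpase6 is the proton channel subunit of complex V.

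In the GENCODE M21 annotation of build GRCm38 the genes behind these names are mt-Atp6, mt-Co2, mt-Cytb and mt-Nd4, all on the same strand of the mitochondrial chromosome. The deposited values rest on another build, mm9, and the transcript models behind the 4 rows are not given in the sources used here, so no coordinates are printed. The annotated genes are 681, 684, 1144 and 1378 bases long. Their last 30 bases are shown because the ends differ in kind. Capitals mark the stop codon, or the single base that is left after the last whole codon and that a poly(A) tail must complete.
mt-Atp6 end: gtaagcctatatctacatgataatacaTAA
mt-Co2 end: ttcgaaaactgatctgcttcaataattTAA
mt-Cytb end: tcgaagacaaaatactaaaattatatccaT
mt-Nd4 end: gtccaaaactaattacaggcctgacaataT
The genes mt-Atp6 and mt-Co2 end in a full TAA, whereas mt-Cytb and mt-Nd4 end in a lone T.

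Reads at the start of both mt-Atp6 and mt-Nd4 can also fall in a neighbouring gene. The annotation lets mt-Atp8, a small subunit of complex V, overlap mt-Atp6 by 43 bases, and mt-Nd4l, a subunit of complex I, overlap mt-Nd4 by 7 bases. Capitals mark the bases that lie in both genes, with 30 bases of each gene around them.
mt-Atp8/mt-Atp6: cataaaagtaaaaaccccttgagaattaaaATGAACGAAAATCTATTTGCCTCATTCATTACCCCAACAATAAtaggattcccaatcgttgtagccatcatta
mt-Nd4l/mt-Nd4: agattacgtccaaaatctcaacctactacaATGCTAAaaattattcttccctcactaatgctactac
Both overlaps open with the ATG start codon of the downstream gene. These pairs are known to stay together on single messages.

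Copies of mitochondrial DNA also sit in nuclear chromosomes, and the 4 genes differ in how close their nearest copy is. A blastn search of all annotated transcripts found 21 nuclear copies. The pseudogene Gm10925 on chromosome 1 matched bases 1 to 678 of mt-Atp6 without a difference, and Gm28661 on chromosome 1 matched bases 1 to 681 of mt-Co2 without a difference. Gm28439 on chromosome 1 matched the first 876 bases of mt-Nd4 without a difference and stopped there. The end of that match is shown because the sequence of mt-Nd4 beyond it has no identical copy among the annotated transcripts. Lower case lies within the match and capitals lie beyond it, over bases 817 to 936.
mt-Nd4 at the copy end: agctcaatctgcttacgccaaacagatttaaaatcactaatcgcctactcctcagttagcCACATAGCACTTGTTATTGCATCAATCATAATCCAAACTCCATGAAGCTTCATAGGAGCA
The nearest copy of mt-Cytb was Gm11410 on chromosome 4, which was 92.9% identical over 1142 bases. A second copy of mt-Co2, Gm13341 on chromosome 2, was 95.9% identical over 684 aligned positions. The first 150 aligned bases of each pair are shown to compare the spacing of the differences, which are in capitals.
mt-Cytb: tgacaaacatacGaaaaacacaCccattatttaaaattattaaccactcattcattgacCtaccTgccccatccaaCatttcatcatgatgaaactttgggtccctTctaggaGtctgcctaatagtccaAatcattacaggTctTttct
Gm11410: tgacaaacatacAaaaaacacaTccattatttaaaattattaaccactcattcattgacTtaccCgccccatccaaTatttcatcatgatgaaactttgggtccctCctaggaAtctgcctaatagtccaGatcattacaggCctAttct
mt-Co2: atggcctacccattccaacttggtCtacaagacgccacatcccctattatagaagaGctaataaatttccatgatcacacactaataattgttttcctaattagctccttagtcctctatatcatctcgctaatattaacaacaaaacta
Gm13341: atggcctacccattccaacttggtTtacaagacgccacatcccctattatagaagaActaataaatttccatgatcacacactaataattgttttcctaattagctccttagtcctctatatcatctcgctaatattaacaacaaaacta
This stretch held 10 differences between mt-Cytb and Gm11410, and 2 between mt-Co2 and Gm13341. None of the 21 copies has a row under its GENCODE name in the deposited table, where 0 of these names were found, and how reads that fit both places were assigned is not given. The 4 values can therefore hold reads of such copies, and this was not tested. The name Cox2 is also an older name of Ptgs2, the prostaglandin synthase, but Ptgs2 has its own row, at 2.19 to 8.30 TPM. TPM is an abundance corrected for transcript length and scaled to a total of 1000000 in each line.

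Cultures were epithelial by their markers. Summed TPM of 10 duct genes (keratins, Sox9, Epcam and others) was 7320 to 15354 over the 19 lines, against at most 2.44 for 7 acinar, 0.12 for 6 endocrine, 0.11 for 6 fibroblast, 4.02 for 6 leukocyte and 0.07 for 3 endothelial genes. The duct sum was lower in tumor lines (7320 to 9222) than in every normal line (10206 to 15354), and its part in the results below was not tested. Between 11938 and 12437 rows reached a TPM of 1 in a line, and TPM keeps no read depth. A single row that is named only by a sequence identifier took 12.4% to 22.2% of all TPM and was lowest in tumor 5 and tumor 8. Because TPM has a fixed total, a larger share leaves less for all other rows together, and results that turn on it are given on other scales too. In bulk RNA, fewer mitochondria or mitochondrial genomes and less RNA from each cannot be told apart. The labels number the lines of a group and leave out whether any of them shared a mouse, and the p-values measure only the spread from line to line.

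Cox2 was by far the most abundant of the 4 rows. Its TPM was 8286 ± 1005 (SD, n = 7) in normal lines, 8540 ± 323 (SD, n = 6) in PanIN lines and 7857 ± 1267 (SD, n = 6) in tumor lines, and it ranked 6th or 7th among all rows in every line. Atpase6 stood at 3763 ± 313, 3856 ± 320 and 3675 ± 527 TPM in the same groups and ranked between 8th and 25th. Both exceeded each of the 80 nuclear respiratory chain genes, whose means ran from 15.4 TPM for Ndufa11, a complex I subunit, to 1195 TPM for Atp5b, the catalytic beta subunit of complex V. Cytb stood at 417 ± 72.1, 418 ± 59.0 and 404 ± 54.6 TPM, and 14 of the 80 nuclear genes had a higher mean. With 138 ± 23.5, 140 ± 50.7 and 145 ± 10.6 TPM, mt-Nd4 was the lowest, and 57 of the 80 had a higher mean.

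The order Cox2, Atpase6, Cytb, mt-Nd4 held in each of the 19 lines, and no neighbours in this order overlapped: the lowest Cox2 value was 6235 TPM and the highest Atpase6 value 4581 TPM, the lowest Atpase6 value was 3021 and the highest Cytb value 533, and the lowest Cytb value was 319.5 and the highest mt-Nd4 value 242.6. The ratio of Cox2 to Atpase6 ran from 1.99 in tumor 8 to 2.46 in PanIN 5. Cox2 exceeded Cytb between 16.9-fold in PanIN 6 and 23.7-fold in PanIN 5, and mt-Nd4 between 36.7-fold in PanIN 6 and 75.7-fold in PanIN 2. These are levels per transcript length as the authors scaled them, and a different length behind a row would shift its level in all lines alike. Other rows, named only by sequence identifiers, were not identified and may hold further mitochondrial transcripts, so the sum of the 4 is not that of the whole mitochondrial genome. The 4 rows summed to between 0.972% and 1.46% of all TPM in a line, and the 80 nuclear genes to between 1.94% and 2.46%.

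**Figure D1:**
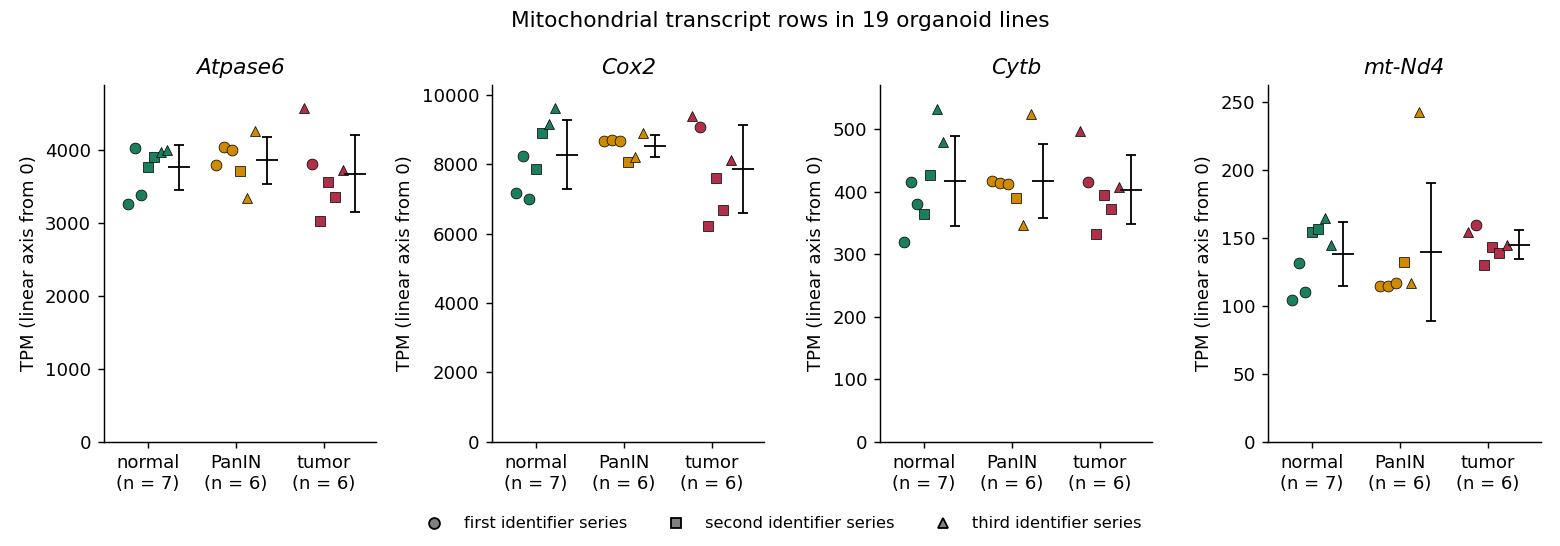
TPM of Atpase6, Cox2, Cytb and mt-Nd4 on linear axes from 0, one point per line, with the group mean ± SD beside each of the 7 normal, 6 PanIN and 6 tumor lines; point shapes give the identifier series of the library. The groups overlap in every panel, and a single PanIN line lies above all others for mt-Nd4, at 242.6 TPM.

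The first comparison asked how the 4 mitochondrial rows differed between PanIN and normal lines. Atpase6 had its lowest, median and highest TPM at 3261, 3908 and 4026 in normal lines and at 3340, 3898 and 4263 in PanIN lines. For Cox2 these were 6994, 8249.6 and 9633 in normal lines and 8065, 8676 and 8897 in PanIN lines. The PanIN values of both genes lay within or close to the normal range, and Cox2 varied less among PanIN lines, with a coefficient of variation of 3.78% against 12.1%. Cytb had 319.5, 415 and 533 TPM in normal lines and 347, 413.5 and 525 in PanIN lines. For mt-Nd4 the values were 104, 145 and 165 in normal lines and 115, 117 and 243 in PanIN lines. Here 5 PanIN lines lay at 115 to 133 TPM, inside the normal range, and PanIN 6 lay above it.

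None of the 4 rows was called between PanIN and normal lines, where 6.78% of the 12500 rows passed (limma, Benjamini-Hochberg adjusted p below 0.05), and 0 of 4 had an unadjusted p below 0.05. The fold of PanIN over normal lines was 1.03 for Atpase6 (95% interval 0.904 to 1.16, adjusted p = 0.878, limma), 1.04 for Cox2 (0.899 to 1.196, adjusted p = 0.843), 1.01 for Cytb (0.854 to 1.19, adjusted p = 0.981) and 0.985 for mt-Nd4 (0.792 to 1.22, adjusted p = 0.962). These folds are on the scale of TPM + 1. The widest interval, that of mt-Nd4, leaves room for folds from 0.792 to 1.22, so equal levels were not shown. Without PanIN 6 the log2 difference of mt-Nd4 went from -0.02 to -0.19 (adjusted p = 0.335, limma).

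Between tumor and normal lines the 4 rows did not pass either. Atpase6 in tumor lines ran from 3021 through a median of 3642 to 4581 TPM, and Cox2 from 6235 through 7874 to 9393 TPM. Cytb ran from 333 through 401 to 497 TPM and mt-Nd4 from 130.1 through 144 to 159.7 TPM. For all 4 the tumor and normal ranges overlapped. Tumor 3 had the highest Atpase6, Cox2 and Cytb values of its group, and tumor 5 had the lowest value of all 4 rows. The fold of tumor over normal lines was 0.972 for Atpase6 (95% interval 0.857 to 1.102, adjusted p = 0.744, limma), 0.944 for Cox2 (0.818 to 1.09, adjusted p = 0.539), 0.973 for Cytb (0.825 to 1.15, adjusted p = 0.813) and 1.06 for mt-Nd4 (0.855 to 1.32, adjusted p = 0.680). In this comparison 32.2% of all rows were called, 0 of the 4 rows were, and 0 of 4 had an unadjusted p below 0.05.

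Tumor lines against PanIN lines gave the same count, 0 of 4 rows called and 0 of 4 with an unadjusted p below 0.05, with 1.6% of all rows called. The fold of tumor over PanIN lines was 0.948 for Atpase6 (95% interval 0.832 to 1.08, adjusted p = 0.596, limma), 0.910 for Cox2 (0.785 to 1.06, adjusted p = 0.388), 0.966 for Cytb (0.814 to 1.15, adjusted p = 0.813) and 1.08 for mt-Nd4 (0.861 to 1.35, adjusted p = 0.667). Without PanIN 6 the mt-Nd4 log2 difference was 0.28 in place of 0.11 (adjusted p = 0.0590, limma). The direction of 9 of the 12 differences of the 4 rows depended on the scale, on the lines kept or on the model, as the alternatives in the closing part show.

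Library identifiers in the column names fall into 3 series, which may mark batches. Tumor 4, the PanIN lines 1 to 3 and the normal lines 5 to 7 belong to the first. Tumor 5, 7 and 8, PanIN 4 and the normal lines 10 and 11 belong to the second, and the other 6 lines to the third. Within the first series Cox2 was higher in PanIN than in normal lines by 0.22 on the log2 scale (3 against 3 lines), but the difference was -0.06 within the second (1 against 2) and -0.14 within the third (2 against 2). For tumor against normal lines Cox2 differed by 0.29 within the first series (1 against 3), -0.30 within the second (3 against 2) and -0.10 within the third (2 against 2). Among normal lines mt-Nd4 was 104 to 132 TPM in the 3 lines of the first series and 145 to 165 in the 4 others, without overlap. Among PanIN lines it was 115 to 117 in the first series and 117 to 243 in the others. PanIN 1, 2 and 3 were female and PanIN 4, 5 and 6 male, so series and sex cannot be told apart in this group. Tumor 4, the only tumor line of the first series, had the highest mt-Nd4 value of the tumor lines, 159.7 TPM.

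Levels of Atpase6, Cox2 and Cytb followed each other from line to line, and mt-Nd4 followed them less closely. Across the 19 lines, log2 values of Atpase6 correlated with Cox2 at r = 0.86 and with Cytb at r = 0.85, and Cox2 with Cytb at r = 0.78. For mt-Nd4 r was 0.67 with Cytb, 0.50 with Atpase6 and 0.39 with Cox2. With group means removed the 6 values ran from 0.48 to 0.86. Rows of one line share its scaling and its largest row, so these correlations are given as descriptions.

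**Figure D2:**
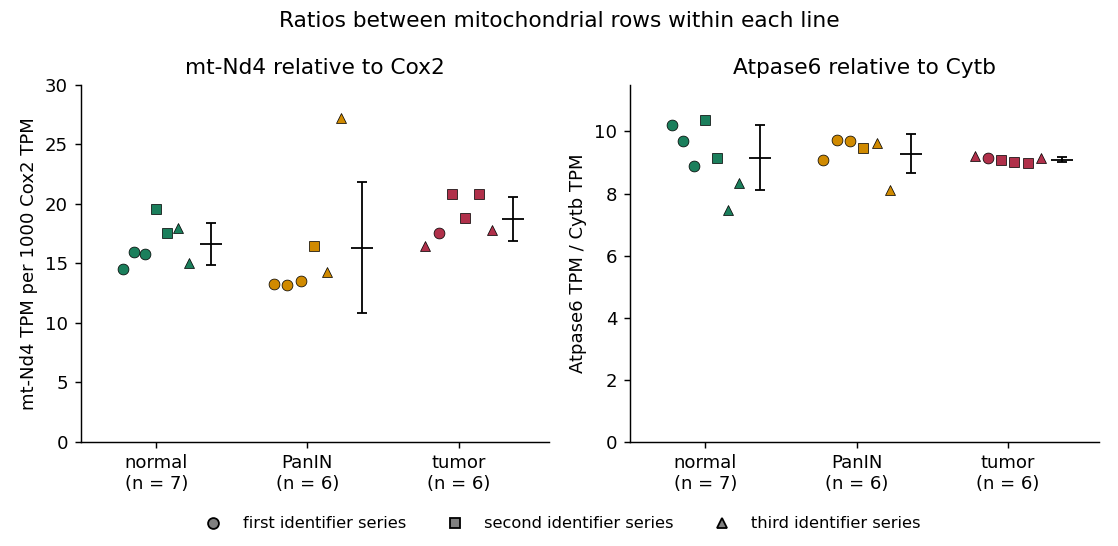
Left, mt-Nd4 TPM per 1000 TPM of Cox2; right, Atpase6 TPM divided by Cytb TPM, one point per line, with the mean ± SD of the 7 normal, 6 PanIN and 6 tumor lines and point shapes for the identifier series. PanIN 6 stands at 27.3 on the left, and the 6 tumor lines fall between 8.996 and 9.21 on the right.

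Ratios between the rows do not depend on how a line was scaled. Atpase6 over Cytb had its lowest, median and highest value at 7.46, 9.14 and 10.4 in normal lines, 8.12, 9.56 and 9.74 in PanIN lines and 8.996, 9.10 and 9.21 in tumor lines. The tumor lines thus lay close together, with an SD of 0.0846 against 1.04 in normal and 0.624 in PanIN lines. That difference in spread was noticed in the data and was not tested. Per 1000 TPM of Cox2, mt-Nd4 reached 14.5, 15.98 and 19.6 TPM in normal lines, 13.2, 13.9 and 27.3 in PanIN lines and 16.4, 18.3 and 20.9 in tumor lines. Outside PanIN 6 the PanIN lines lay at or below 16.4, and tumor 3, the lowest tumor line, lay at 16.4. Of 18 comparisons of log2 ratios between the rows, none passed an exact permutation test (two-sided). The smallest p was 0.0659 for Cox2 over mt-Nd4 in tumor against normal lines (adjusted p = 0.633, exact permutation test, log2 difference -0.17), where 0.000583 was the smallest p the test allows.

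The nuclear genes of the respiratory chain were compared next. All 80 listed genes passed the filter. Between PanIN and normal lines 76 of 80 had a higher mean log2 value in PanIN lines, with a median log2 difference of 0.09 against -0.03 over all rows, but only 1 of 80 (1.25%) was called, below the 6.78% of all rows. That gene was Uqcr11, a small subunit of complex III, which stood at 361 ± 25.6 TPM in normal and 430.5 ± 19.4 in PanIN lines and so rose 1.19-fold (adjusted p = 0.0169, limma). At an unadjusted p below 0.05 (limma) there were 14 of the 80 higher and 0 lower, with 19% of all rows below it in either direction. The authors' deposited table called 10 of the 80 higher and 0 lower. The share of all rows that the authors called was not counted here, for this comparison or those below. Within the first identifier series the median difference of the 80 genes was 0.004 on the log2 scale, against 0.17 in the second and 0.18 in the third.

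In tumor lines 31 of the 80 nuclear genes rose and 1 fell against normal lines, 40% of them against 32.2% of all rows, with a median log2 difference of 0.15 against 0.04 over all rows. The authors' deposited table called 30 higher and 1 lower. On TPM rescaled over the rows that the authors compared, which leaves out the most abundant rows, 21 rose and 5 fell with 30.6% of all rows called. With quantile normalization 15 rose and 6 fell with 31.6% called. On these 2 scales the share of the 80 genes was near or below that of all rows. With median-of-ratios scaling 30 rose and 1 fell with 33.4% of all rows called, and the median log2 difference was 0.13 against 0.02 over all rows. Without PanIN 6, tumor 5 and tumor 8 together the main scale gave 10 that rose and 1 that fell, with 14.4% of all rows called; these lines were chosen after the values were seen.

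By complex, the share that passed between tumor and normal lines ran from 16.7% in complex IV to 55.6% in complex III. It was 36.1% in complex I and 50% in complexes II and V, against 32.2% of all rows. These shares were not counted on the other scales. In complex I 12 of 36 rose and 1 fell. Ndufb10, an accessory membrane subunit, rose 1.46-fold (135 ± 16.2 to 198 ± 26.9 TPM, adjusted p = 0.000929, limma), Ndufs3, a subunit of the matrix arm, 1.22-fold, and Ndufab1, the mitochondrial acyl carrier protein, 1.31-fold. The gene that fell was Ndufa1, a small membrane subunit, at 119.8 ± 14.4 TPM in normal and 93.7 ± 8.72 in tumor lines. Tumor lines had mt-Nd4, of the same complex, at 1.06-fold of normal lines, which was not called.

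In complex III 5 of 9 nuclear genes rose and 0 fell. Cyc1, cytochrome c1, rose 1.47-fold from 115 ± 20.3 to 169 ± 34.4 TPM (adjusted p = 0.00391, limma), Uqcr11 1.23-fold and Uqcr10, another small subunit, 1.24-fold. Cytb, the mitochondrially encoded partner of Cyc1 in the catalytic core, stood at 0.973-fold and was not called. In complex IV 2 of 12 rose and 0 fell: Cox5a, a structural subunit, 1.23-fold (224 ± 18.5 to 278 ± 43.6 TPM, adjusted p = 0.0239, limma) and Cox7a2, another small subunit, 1.11-fold. Cox2, of the same complex, stood at 0.944-fold.

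Complex V had 9 of 18 that rose and 0 that fell. Atp5g1, which encodes the c subunit of the rotating ring that faces Atpase6, rose 1.55-fold from 125 ± 13.4 to 196 ± 36.9 TPM (adjusted p = 0.00188, limma), Atp5f1 of the peripheral stalk 1.31-fold and Atp5j2, a membrane subunit, 1.23-fold. Atpase6 itself stood at 0.972-fold. In complex II, which has no mitochondrially encoded subunit, 2 of 4 rose: Sdhd, a membrane anchor, 1.29-fold (adjusted p = 0.00382, limma) and Sdhb, the iron-sulfur subunit, 1.19-fold. Cycs, cytochrome c, rose 1.32-fold from 101 ± 11.9 to 136 ± 29.4 TPM (adjusted p = 0.0324, limma).

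**Figure D3:**
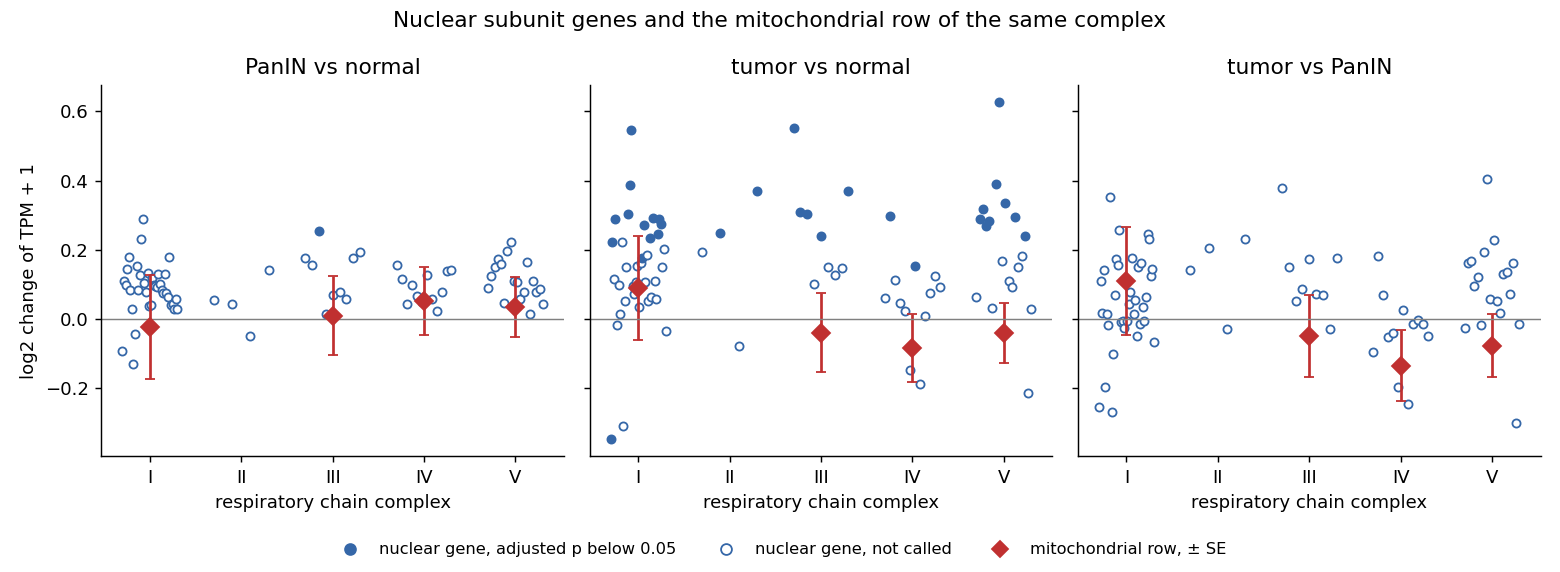
Log2 change of TPM + 1 in the 3 comparisons for the nuclear subunit genes of complexes I to V (circles, filled where the adjusted p is below 0.05) and for the mitochondrial row of the same complex (diamonds, ± SE). Complex II has no diamond. Between tumor and normal lines 30 of the filled circles lie above 0 and 1 below, while all 4 diamonds are within 1 SE of 0.

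Between tumor and PanIN lines none of the 80 genes was called by limma, with 1.6% of all rows called. At an unadjusted p below 0.05 (limma) 14 were higher and 5 lower, with 29.7% of all rows below it in either direction. The authors' deposited table called 0 higher and 5 lower. The count by limma rests on single lines. Without PanIN 6, 9 rose and 5 fell with 22.7% of all rows called, and without tumor 4, 9 rose and 4 fell with 19.2% called. The nearest to the threshold in each complex went in both directions. Cox7a2l, counted here with complex IV, stood at 0.844-fold in tumor lines (adjusted p = 0.0704, limma) and Atp5g1 at 1.32-fold (adjusted p = 0.0725, limma).

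Factors that make and handle mitochondrial RNA were read from lists of their own. These and the further lists below were counted on the deposited TPM scale alone, so the part of the largest row in their counts was not tested. Between tumor and normal lines 2 of 14 tested genes of mitochondrial transcription and DNA maintenance rose and 0 fell (14.3%, against 32.2% of all rows). Tfam, which packages mitochondrial DNA and starts its transcription, rose 1.27-fold from 22.1 ± 3.63 to 28.1 ± 2.63 TPM (adjusted p = 0.0111, limma), and Ssbp1, which binds single-stranded mitochondrial DNA, 1.18-fold. In the list of RNA processing and stability 10 of 19 rose and 0 fell (52.6%). Ptcd2 and Ptcd3, pentatricopeptide repeat proteins, rose 1.27-fold each, Tbrg4, of a family that acts on mitochondrial messages, 1.51-fold from 15.2 ± 3.77 to 23.3 ± 5.03 TPM (adjusted p = 0.00780, limma), and Supv3l1, an RNA helicase of mitochondrial RNA decay, 1.29-fold.

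Among translation factors 5 of 12 rose and 0 fell (41.7%), including the elongation factors Tufm (1.34-fold) and Gfm1 (1.28-fold), the recycling factor Gfm2 (1.203-fold) and the initiation factor Mtif3 (1.23-fold). Of assembly factors 9 of 26 rose and 0 fell (34.6%, near the 32.2% of all rows), with Cox15, needed to make haem a, at 1.38-fold. Of general mitochondrial genes of the outer membrane, import and matrix, 17 of 19 rose and 0 fell (89.5%), with a median log2 difference of 0.37. Vdac2, an outer membrane channel, rose 1.29-fold from 351 ± 33.0 to 453.5 ± 44.5 TPM (adjusted p = 0.00233, limma), and the import receptors Tomm20 and Tomm22 1.43-fold and 1.37-fold. Of 6 tested regulators of mitochondrial biogenesis, Nrf1 (1.29-fold) and Yy1 (1.197-fold) rose (33.3%, near the 32.2% of all rows). Ppargc1a and Ppargc1b did not reach the filter.

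PanIN against normal lines gave 1 call in all of these lists together, with 6.78% of all rows called. The lists held 14, 19, 12, 26, 19 and 6 tested genes, in the order above. Esrra, a nuclear receptor that acts on respiratory genes, rose 1.27-fold from 41.2 ± 4.55 to 52.4 ± 3.73 TPM (adjusted p = 0.00706, limma). Tumor against PanIN lines gave 0 calls by limma in them, with 1.6% of all rows called.

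Each line was then given a nuclear score, the mean log2(TPM + 1) of the 80 nuclear genes, to relate the 4 rows to it line by line. The score had its mean at 7.71 ± 0.0850 (SD, n = 7) in normal, 7.80 ± 0.0751 (SD, n = 6) in PanIN and 7.87 ± 0.0722 (SD, n = 6) in tumor lines. It was lowest in normal 11, at 7.59, and highest in tumor 8, at 7.95. Over 19 lines, with p adjusted over the 4 rows, it correlated negatively with Cox2 (r = -0.53, adjusted permutation p = 0.0745; rho = -0.61, adjusted p = 0.0159), with Atpase6 (r = -0.48, adjusted permutation p = 0.0745; rho = -0.57, adjusted p = 0.0159) and with Cytb (r = -0.41, adjusted permutation p = 0.103; rho = -0.57, adjusted p = 0.0159). The rank correlation thus passed for these 3 rows and Pearson's r did not. With mt-Nd4 r was -0.01 (adjusted permutation p = 0.969) and rho -0.05.

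With group means removed, r was -0.61 for Cox2, -0.58 for Atpase6 and -0.50 for Cytb, and these 3 passed (adjusted permutation p = 0.0164, 0.0164 and 0.0389), while mt-Nd4 had -0.12. That test permuted values over all lines, not within groups, and made no allowance for the removed means. Its p-values can therefore be too small. Without normal 11 and tumor 8, the 2 lines farthest from the median score, r was -0.43, -0.44, -0.41 and 0.08 for Cox2, Atpase6, Cytb and mt-Nd4, none of which passed (adjusted permutation p = 0.136 for the first 3). The rank correlation of these 3 passed without those lines too, at rho = -0.51, -0.53 and -0.52 (adjusted permutation p = 0.0493 each), and that of mt-Nd4 was 0.06. Within the 3 identifier series r of Cox2 was -0.28 (n = 7), -0.71 (n = 6) and -0.78 (n = 6), that of Atpase6 was -0.58, -0.60 and -0.41, and that of Cytb -0.44, -0.53 and -0.72. For mt-Nd4 it was -0.21, -0.67 and -0.15. Within the normal, PanIN and tumor groups r of Cox2 was -0.64, -0.59 and -0.72 and that of mt-Nd4 -0.56, 0.34 and -0.69. Over all lines but PanIN 6, r of mt-Nd4 was -0.14 (adjusted permutation p = 0.57). No within-series or within-group p was below 0.05 (exact permutation, smallest 0.0819 for r and 0.0583 for rho, before adjustment).

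The largest row of the table was set beside this relation. The share of that row correlated with the nuclear score at r = -0.75 (permutation p = 0.00018), with Cox2 at r = 0.77 (adjusted permutation p = 0.00084), with Atpase6 at r = 0.59 (0.0148), with Cytb at r = 0.42 (0.0923) and with mt-Nd4 at r = -0.10. A larger share leaves less TPM for all other rows together, yet Cox2 and Atpase6 were higher where the share was higher. The reason was not tested. Without normal 11 and tumor 8, the 2 lines farthest from the median score, r of the share with the nuclear score was -0.68. Without the 2 lines farthest from the median of the share itself, r was 0.46 with Cox2, 0.24 with Atpase6, 0.20 with Cytb and -0.27 with mt-Nd4. The relations with the mitochondrial rows thus rest partly on the latter lines. When TPM was rescaled over the rows that the authors compared, a scale that the largest row does not enter and that was added after the values were seen, r with the nuclear score was -0.16 for Cox2 (adjusted permutation p = 0.649), -0.25 for Atpase6 and -0.26 for Cytb (0.593 each), and -0.11 for mt-Nd4 (0.649). With group means also removed none passed (adjusted permutation p = 0.671 each). Median-of-ratios scaling gave -0.19, -0.29, -0.36 and -0.04 in the same order. By rank, the smallest adjusted permutation p was 0.399 on the first of these scales and 0.167 on the second, for Cytb and Atpase6 at rho = -0.45 and -0.41. The negative relation was therefore not called on either scale, by r or by rho.

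**Figure D4:**
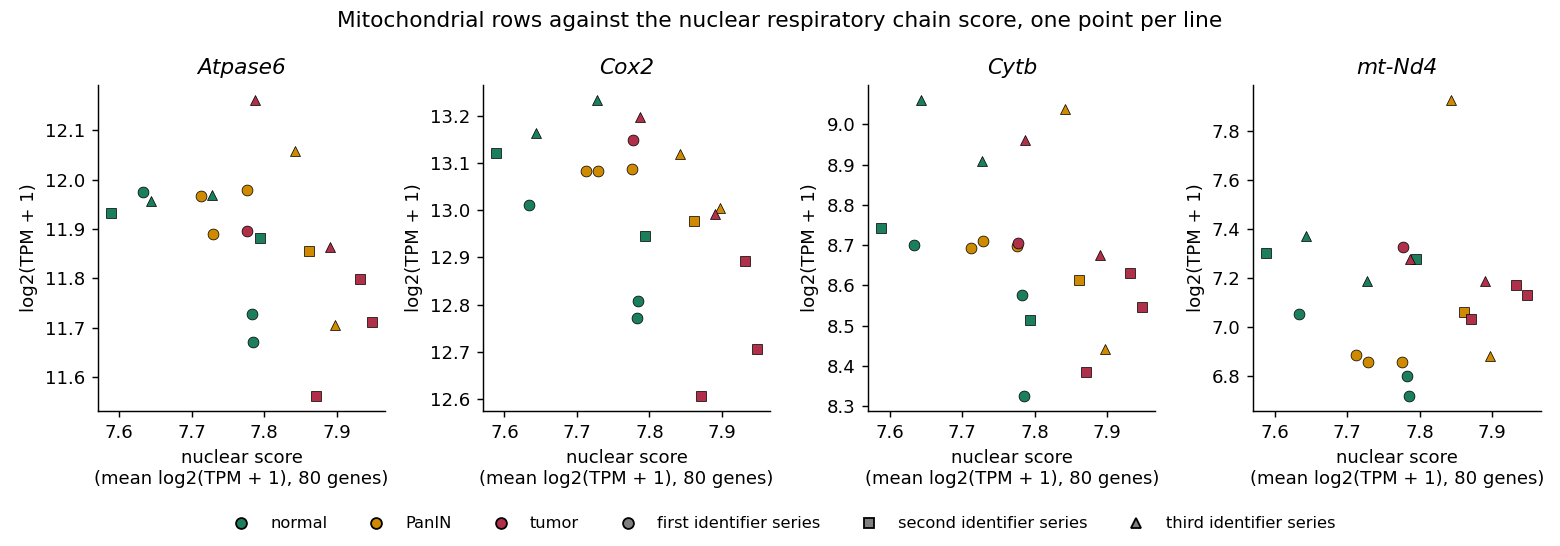
Log2(TPM + 1) of each mitochondrial row against the nuclear score, the mean log2(TPM + 1) of 80 nuclear respiratory chain genes, one point per line, with colours for the groups and shapes for the identifier series. Points of Atpase6, Cox2 and Cytb slope downwards (r = -0.48, -0.53 and -0.41), and those of mt-Nd4 do not (r = -0.01).

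Each row was also set against the nuclear genes of its own complex. Atpase6 and the complex V genes had r = -0.50 (adjusted permutation p = 0.103; rho = -0.58, adjusted p = 0.0298) and Cytb and the complex III genes r = -0.45 (adjusted permutation p = 0.103; rho = -0.55, adjusted p = 0.0298). For Cox2 and complex IV r was -0.03, and for mt-Nd4 and complex I it was -0.02. Leaving out the 2 lines farthest from the median gave r of -0.50, -0.31, 0.11 and 0.04 in that order. The difference of a row from the nuclear score, which is nearly free of scaling, was lower in tumor than in normal lines for Cox2 (5.06 ± 0.29 against 5.30 ± 0.24 on the log2 scale, n = 6 and 7, exact permutation p = 0.129, adjusted p = 0.632 over 12 tests) and for Atpase6 (3.96 ± 0.25 against 4.17 ± 0.19, exact permutation p = 0.131, adjusted p = 0.632). None of the 12 such differences passed.

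Rows whose log2 values were most like those of the 4 were named by Pearson's r over the 19 lines. For Atpase6 they included Cox2 (0.86), Cytb (0.85), the zinc finger gene Zfp273 (0.80) and Hsd17b11 (0.73). For Cox2 they were Atpase6, a row named only by a sequence identifier (0.82, mean 12866 TPM, one of the 7 other expressed rows without the authors' comparison), Atl1 (0.80), Igfbp7 (0.78) and Cytb. For Cytb, Atpase6 and Cox2 were joined by another row named only by an identifier (0.78), Crem (0.78) and Ccdc125 (0.77). None of the other 3 was among the first 5 for mt-Nd4, which had Gm10416 (0.83), Wasf1 (0.83), a row with only an identifier (0.80), Zfp605 (0.78) and Zfp560 (0.77). Several of these genes had means of 1.26 to 10.4 TPM, where few reads stand behind a value.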

How the data were processed

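RNA was measured in 19 organoid lines. The authors deposited TPM per row and line. The submitters' processing notes name build mm9, Bowtie 1.1.0, RSEM 1.2.11, FastQC, DESeq2 1.4.1 and DESeq, and the sources used here give no annotation. Per the file headers, the deposited table also holds the authors' mean signal per row (a base mean), their log2 fold change and their adjusted p-value. It holds none of these for 11 expressed rows, the 4 studied here among them, which together took 16.3% to 28.6% of TPM. The number of columns of other samples is 0.

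From TPM, log2(TPM + 1) was fitted with limma 3.58.1 in R 4.3.3: group means over all lines, eBayes with trend, two-sided, Benjamini-Hochberg adjustment over all tested rows, called below 0.05. Rows needed a TPM of at least 1 in at least 6 lines. The fit was run on simulated data with independent noise and shifts larger than any difference of the 4 rows. Differences as small as theirs were not simulated. Depth is unknown, so no counting interval is given. Correlations and ratios used 100000 permutations, or exact ones for small groups. The 3 nuclear genes of smallest p per complex, up to 4 called genes per other list and the 5 nearest rows by r were named; Ndufa1 was named after its value was seen. Members and lists were chosen with earlier results of these data known. Sequences were compared with blastn 2.17.0. Tables were read with the data.table package (version 1.17.8) and figures drawn with matplotlib 3.10.9 in Python 3.11.15. Alternatives were other pseudocounts, filters and scalings, covariates, the line number as a block and leaving out each line. Some alleles of these mice and 1 of the nearest rows are not reported here.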

Additional observations from a re-analysis of the deposited data

Results flagged for a closer look

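PanIN 6 stood apart from the other 5 PanIN lines for mt-Nd4, at 242.6 TPM against 115 to 133, with a gap to the nearest line of 0.861 of the whole range. It also stood apart in mt-Nd4 per 1000 TPM of Cox2, at 27.3 against 13.2 to 16.4 (0.769 of the range). The other 3 rows of PanIN 6 were the highest of the PanIN group without standing apart: Atpase6 at 4263, Cox2 at 8897 and Cytb at 525 TPM. Of 24 sets of lines examined in this way 2 were marked, where chance marks about 1 in 20 independent sets. These sets share lines and rows, and both marks rest on the mt-Nd4 value of PanIN 6.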

How the results depend on the processing

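None of the 4 rows was called in any comparison under any of 33 alternatives (396 values, 0 called), but 37 of these log2 differences changed direction. With the authors' compared rows as the total, Cytb (PanIN vs normal) was -0.012 and mt-Nd4 (tumor vs normal) -0.0014. With median-of-ratios scaling mt-Nd4 (PanIN vs normal) was 0.013, and with the identifier series as covariate Cytb (PanIN vs normal) was -0.0064. With quantile normalization Cytb was -0.048 (PanIN vs normal), Cox2 0.15 and mt-Nd4 -0.030 (tumor vs normal), and Cox2 0.090 (tumor vs PanIN). Without PanIN 6, tumor 5 and tumor 8, an alternative added after the data were seen, Cytb was -0.058 (PanIN vs normal), and Atpase6, Cox2 and Cytb were 0.056, 0.050 and 0.053 (tumor vs normal) and 0.050, 0.010 and 0.11 (tumor vs PanIN). Leaving out each line gave, for PanIN vs normal, -0.058 to 0.072 for Cytb and -0.19 to 0.023 for mt-Nd4. For tumor vs normal it gave -0.11 to 0.013 for Atpase6 and -0.10 to 0.022 for Cytb, and for tumor vs PanIN -0.11 to 0.019 for Cytb. Of the 12 differences, 3 kept their direction under all 33 alternatives: Atpase6 and Cox2 in PanIN vs normal and mt-Nd4 in tumor vs PanIN. The cause of these changes was not tested.

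Counts of nuclear genes called are given here with the share of all rows called in brackets. Between PanIN and normal lines (1 of 80, 6.78%) they numbered 3 with median-of-ratios scaling (7.48%). They numbered 2 with the identifier series as covariate (8.45%) and 1 to 2 when each line was left out (3.97% to 7.14%). Between tumor and normal lines (32 of 80, 32.2%) they numbered 21 with quantile normalization (31.6%) and 11 without PanIN 6, tumor 5 and tumor 8 (14.4%). Leaving out each line gave 22 to 41 (21.3% to 38.9%). Between tumor and PanIN lines (0 of 80, 1.6%) there was 1 with quantile normalization (2.66%). There were 0 to 14 when each line was left out (0.424% to 22.7%).

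The replicate block used the line number as a term. The labels do not say whether lines of the same number belong together. Over 7 pairs with the same number, deviations from the group means correlated between -0.31 and 0.25, with 1 pair over 0.1, and 1 of 11 lines correlated best with its own number. Such values cannot decide whether lines of a pair shared a mouse. The replicate block, where few lines share a number, called 0 nuclear genes between PanIN and normal lines (2.06% of all rows). Between tumor and normal lines it also called 0 (1.8% of all rows). It gave 0.39 for mt-Nd4 (PanIN vs normal), 0.043, 0.053 and 0.18 for Atpase6, Cox2 and Cytb (tumor vs normal), 0.55 in place of 0.088 for mt-Nd4 (tumor vs normal, adjusted p = 0.114, limma) and 0.024 and 0.045 for Atpase6 and Cytb (tumor vs PanIN).

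Rows related to the nuclear score (0 of 4 by Pearson's r) numbered 3 with group means removed, where p can be too small. They numbered 0 to 3 when each line was left out: 3 without PanIN 6 and 2 without tumor 3. The r of mt-Nd4 was 0.075 without the 2 farthest lines and -0.14 to 0.076 when each line was left out. Depth is unknown, so no value has a counting error.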

Other observations

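Of the 11 expressed rows without the authors' comparison, 7 are not among the 4 rows described and are named only by a sequence identifier; which transcripts they hold, mitochondrial or other, was not determined. Together they took 15.3% of TPM in tumor 5, the lowest line, and 27.2% in normal 11, the highest. The largest of them took 20.5% ± 1.60 (SD, n = 7) in normal, 19.6% ± 1.66 (SD, n = 6) in PanIN and 16.5% ± 2.92 (SD, n = 6) in tumor lines, and tumor 3 and tumor 4, at 19.6% and 19.4%, lay within the range of the other groups. The share of the 80 nuclear genes was 2.10% ± 0.123, 2.26% ± 0.108 and 2.34% ± 0.105 in the same groups, and that of the 4 mitochondrial rows 1.26% ± 0.137, 1.30% ± 0.0695 and 1.21% ± 0.182.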
